A study of Mus musculus with 10 samples.

Results

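The expression of 10 genes that mark the first steps toward megakaryocytes, platelets and red cells was examined in preleukemic mouse LSK cells with and without miR-126. The genes were chosen by symbol, and all 10 were found among the 25078 genes of the deposited raw count table. Itga2b, Pf4, Vwf, Selp and Gp1bb belong to the megakaryocyte and platelet lineage, Klf1, Epor and Car1 to the erythroid lineage, and the transcription factors Nfe2 and Gfi1b act in both.

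LSK cells are bone marrow cells that lack mature lineage markers and carry Sca-1 and c-Kit, the fraction that holds hematopoietic stem cells and multipotent progenitors. RNA-seq was available as 1 library from each of 10 mice, of which 5 were CM and 5 were CM/miR-126Δ/Δ. CM mice carry the conditional knock-in Cbfb 56M/+ together with Mx1-Cre, and CM/miR-126Δ/Δ mice carry in addition floxed miR-126 alleles. Both genotypes received 7 doses of poly(I:C), begun at 6 to 8 weeks of age, and were studied 6 weeks after induction. All 10 mice therefore expressed the Cbfb-MYH11 fusion, had been exposed to poly(I:C) and carried Cre. No mouse without the fusion was analysed here, so no level can be read as that of normal LSK cells. Mx1-Cre responds to interferon and also recombines in cells outside the blood lineages. The comparison asks how loss of miR-126 alters gene expression in LSK cells that express the fusion.

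Multipotent progenitors transcribe low amounts of lineage genes before they commit, a state called lineage priming. Itga2b encodes CD41, the integrin alpha chain of the platelet fibrinogen receptor, and appears early in cells with megakaryocyte potential. A subset of stem cells that carries Vwf is known to be biased toward platelets. Erythroid genes are switched on by GATA1 and by KLF1, the product of Klf1, and GATA1 and NF-E2 also act in megakaryocytes. CBFβ, which the fusion alters, is the partner of RUNX1, a factor that megakaryocytes need.

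Read depth was 23649233 to 33202086 counts per library, so that 3 counts, taken here as the lowest level above the detection limit, corresponded to 0.0908 to 0.131 CPM (counts scaled to a common library size with TMM factors). Such limits cover counting error only. Reads on the precursor gene Mir126a, the deleted gene, numbered 4, 5, 0, 2 and 3 in CM mice 1 to 5 and 0 in each of the 5 CM/miR-126Δ/Δ mice, most of them at or below the limit. The LSK markers Kit, Cd34 and Ly6a (Sca-1) had mean levels of 172, 347 and 57.8 RPKM (CPM divided by exon length in kilobases). All 8 of the LSK markers examined were above 1 RPKM, and their summed level was 2244 to 2814 CPM per mouse. Bulk RNA cannot tell fewer cells of a type from less RNA per cell.

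The promoters show which members carry the recognition sequences of the erythroid and megakaryocyte factors next to their start sites. Windows of 300 bases, 250 before and 50 after the start site (RefSeq, GRCm38.p6), were found for 7 members: Itga2b, Pf4, Selp, Gp1bb, Gfi1b, Klf1 and Epor. Vwf, Nfe2 and Car1 had no entry in the table used here. The 250 bases before the start site are printed for the 4 members with a GATA match in them, each 5′ to 3′ on the strand of the gene, with capitals marking GATA matches (AGATAA and its variant AGATAG, and likewise TGATAA and its variant TGATAG, on either strand) and CACC boxes (CCNCNCCC on either strand, the type of sequence bound by KLF1).
Gp1bb, chr16:18622404-18622653, minus strand: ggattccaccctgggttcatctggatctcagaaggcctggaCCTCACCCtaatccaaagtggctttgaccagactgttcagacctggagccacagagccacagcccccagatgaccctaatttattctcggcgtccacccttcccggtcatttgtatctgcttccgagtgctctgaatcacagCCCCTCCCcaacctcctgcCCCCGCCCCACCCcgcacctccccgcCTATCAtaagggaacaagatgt
Gfi1b, chr2:28621983-28622232, minus strand: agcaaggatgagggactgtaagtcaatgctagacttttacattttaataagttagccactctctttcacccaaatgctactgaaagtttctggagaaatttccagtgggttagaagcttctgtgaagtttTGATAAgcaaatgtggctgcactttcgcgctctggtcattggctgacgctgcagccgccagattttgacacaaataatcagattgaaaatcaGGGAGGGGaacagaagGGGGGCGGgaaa
Klf1, chr8:84901732-84901981, plus strand: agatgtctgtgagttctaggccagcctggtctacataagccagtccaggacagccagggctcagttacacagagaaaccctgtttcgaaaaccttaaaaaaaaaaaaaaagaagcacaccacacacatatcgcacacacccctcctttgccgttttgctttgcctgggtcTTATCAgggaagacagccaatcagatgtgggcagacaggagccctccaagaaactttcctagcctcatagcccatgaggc
Epor, chr9:21963577-21963826, minus strand: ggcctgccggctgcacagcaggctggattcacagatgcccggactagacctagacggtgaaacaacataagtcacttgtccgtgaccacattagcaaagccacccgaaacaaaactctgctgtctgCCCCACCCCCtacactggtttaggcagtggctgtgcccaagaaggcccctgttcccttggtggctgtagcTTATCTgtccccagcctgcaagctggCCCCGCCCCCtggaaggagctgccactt

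The GATA match of Gp1bb lies 22 to 17 bases before the start site, that of Epor 54 to 49, that of Klf1 80 to 75 and that of Gfi1b 120 to 115 bases before it. Pf4 has its match 37 to 42 bases after the start site. GATA letters were thus found in 5 of the 7 windows, against 29.8% of all 32851 promoter windows, and CACC boxes in 4 of 7 (Itga2b, Gp1bb, Gfi1b and Epor) against 49.5%. The core-binding factor letters TGTGGT or TGCGGT, bound by the RUNX1 and CBFβ complex, were found in 2 of 7 (Klf1 and Epor) against 22.4%. The ETS letters GGAAGT were in 3 of 7 (Itga2b, Pf4 and Selp) against 23.8%, and the NF-E2 core TGANTCA in 2 of 7 (Selp and Gp1bb) against 7.81%. All motifs were searched on both strands, and CACC boxes in Epor and Gp1bb overlap each other. Such matches describe the letters only and do not show that a factor binds.

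The mature microRNA miR-126a-3p is printed with its seed, bases 2 to 8, in capitals. It lies at chr2:26591402-26591423 on the plus strand (RefSeq, GRCm38.p6), within the host gene Egfl7.
miR-126a-3p: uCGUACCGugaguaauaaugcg

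Targets of a microRNA usually pair with its seed in their 3′ untranslated region. Only the seed of miR-126a-3p was searched, not that of any other mature strand. Neither the 7-base match CGGTACG nor the 6-base match GGTACG it contains was found in the longest 3′ untranslated region of any of the 10 members (121 to 1008 bases, GENCODE M1 transcripts). Among 19915 genes with such a region, 588 (2.95%) held the 6-base match and 42 (0.211%) the 7-base match, so that the letters are rare in mouse genes in general.

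None of the 10 members passed the cutoffs between the genotypes, which asked for p of 0.01 or less, a difference of 1.5-fold or more either way and 1 RPKM or more on average in one of the genotypes. Over the whole table, 54 of 18747 genes fitted passed them (0.288%). At an unadjusted p under 0.05, 0 members were found, against 1239 genes (6.61%) in all, and 2 genes (0.0107%) had an adjusted p under 0.05 with edgeR's quasi-likelihood test. DESeq2 also called 0 members. The genotypes overlapped for every member, while they did not overlap for 206 genes (1.10%). Members differed by log2 fold changes of −0.30 to 0.69 (CM/miR-126Δ/Δ against CM), 7 above 0 and 3 below, with a median of 0.07 against −0.01 for all genes fitted. Their adjusted p-values from edgeR's quasi-likelihood test ranged from 0.764 to 0.983. Standard errors were large for members with few reads or a wide spread, and a difference that missed the test does not show equal expression.

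**Figure D1:**
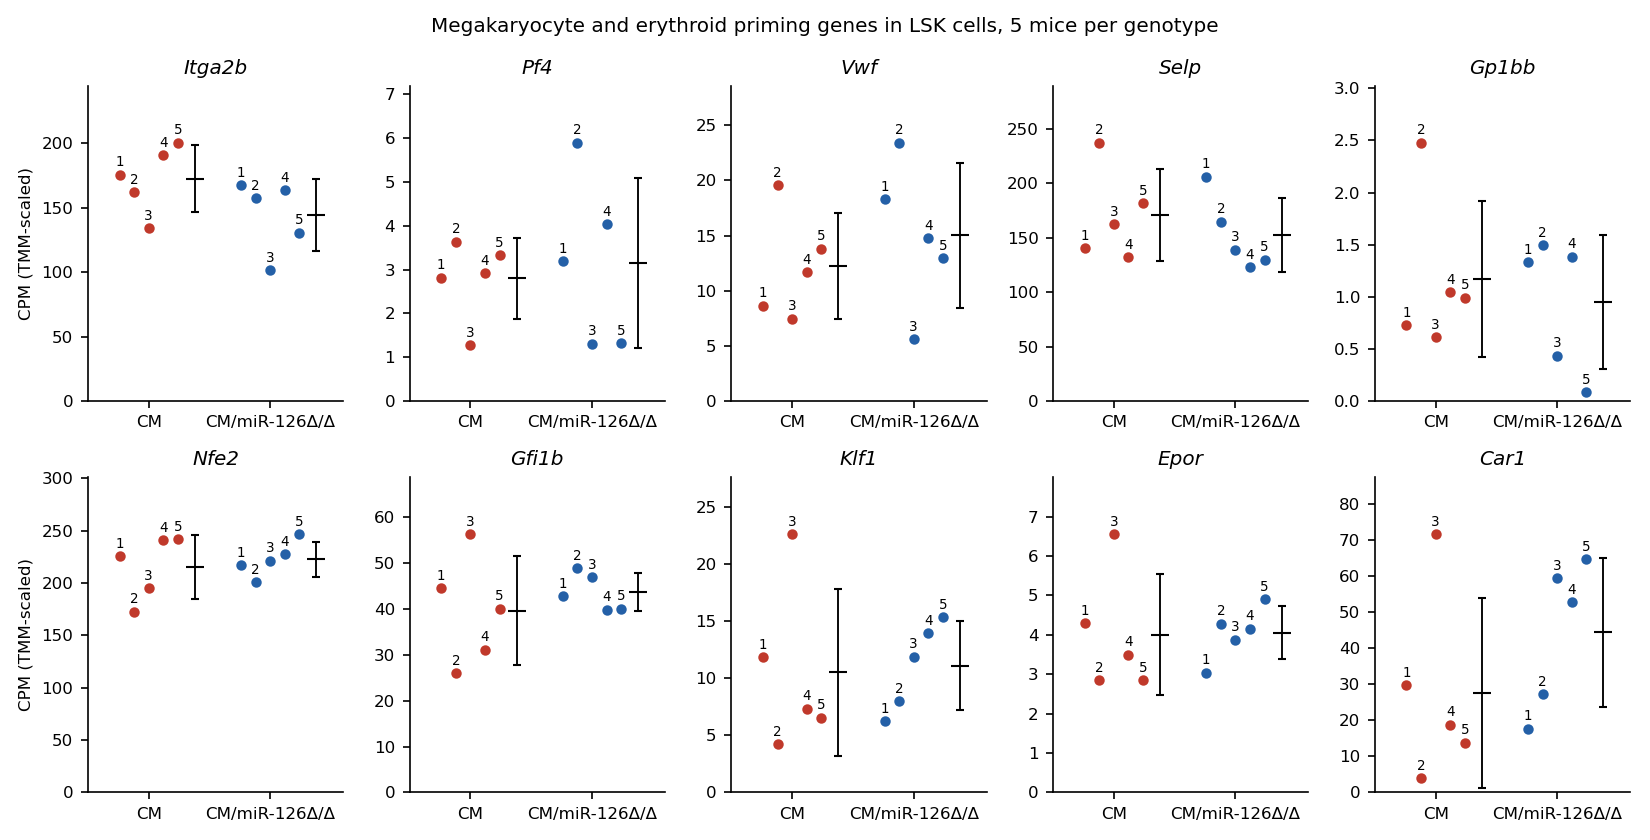
Level of each member in each mouse, in CPM scaled by TMM factors on axes that start at 0, with red points for CM and blue points for CM/miR-126Δ/Δ. Numbers are replicate numbers, and the black bars give the mean ± SD of 5 mice. The genotypes overlap in all 10 panels, and CM mouse 3 is the highest mouse for Gfi1b, Klf1, Epor and Car1.

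Deviations from the genotype means correlated between mice of equal replicate number (r of 0.202 to 0.484). For some mice, however, the closest mouse of the other genotype bore another number, so the pairing is uncertain. Each comparison was repeated with the replicate number as a blocking term. In that fit 115 genes (0.613%) passed the cutoffs, and again none of the 10 members did. At an unadjusted p under 0.05 there were 1666 genes (8.89%) with the block, and 2 of the 10 members were among them, Itga2b and Car1.

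**Figure D2:**
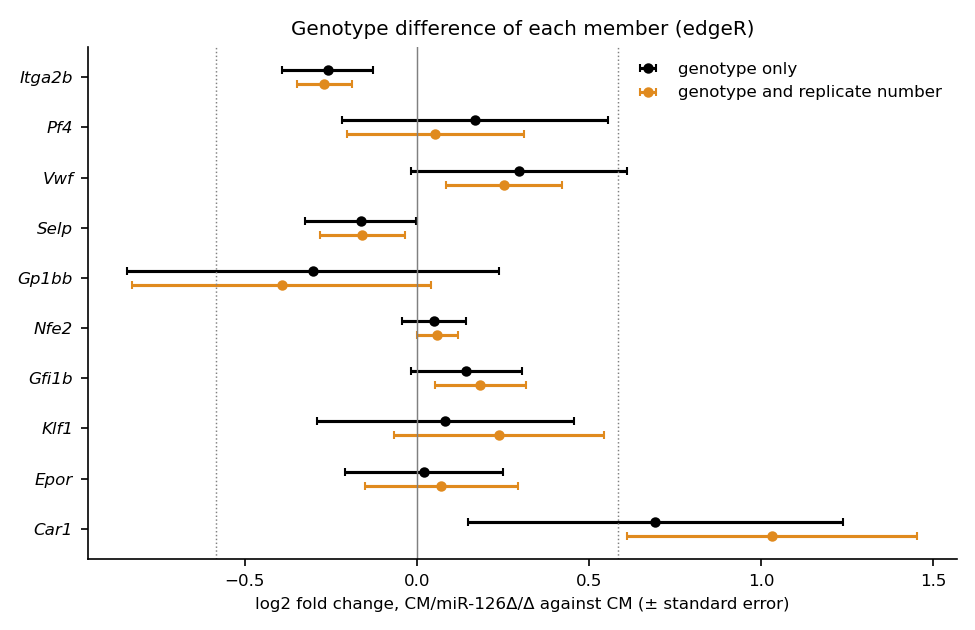
Log2 fold change of each member from edgeR with a standard error calculated from its F-test, fitted with genotype alone (black) and with genotype and replicate number (orange). Dotted lines mark a 1.5-fold change either way. Car1 has the largest values, 0.69 and 1.03, and Itga2b lies below 0 with the smallest error of the 3 members below 0.

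The platelet receptor gene Itga2b (chr11:102453297-102469883, minus strand) was among the highest members. Its level was 176, 162, 134, 191 and 200.4 CPM in CM mice 1 to 5, and 168, 157, 102, 164 and 131 CPM in CM/miR-126Δ/Δ mice 1 to 5. The CM/miR-126Δ/Δ mouse was the lower one in each of the 5 same-numbered pairs, although the genotypes overlapped. The means were 173 ± 26.0 and 144 ± 27.8 CPM (SD, n = 5 each; exact permutation test over all splits into 5 and 5, two-sided, p = 0.135). The log2 fold change was −0.26 with a standard error of 0.13 (adjusted p = 0.764, edgeR's quasi-likelihood test). With the replicate block it was −0.27 with a standard error of 0.079 (unadjusted p = 0.00535, adjusted p = 0.274, edgeR). The exact sign-change test over the 5 pairs gave p = 0.0625, the smallest that 5 pairs allow. A gene that was lower in all 5 pairs was not rare, since 749 of the 11532 genes that averaged 1 RPKM or more (6.49%) were. The fold change, 0.835, did not reach the 1.5-fold cutoff in either fit.

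Pf4 (chr5:90772435-90773383, plus strand) encodes platelet factor 4, a chemokine stored in platelet granules. It was measured at 2.82, 3.64, 1.27, 2.92 and 3.34 CPM in the CM mice and at 3.19, 5.89, 1.31, 4.04 and 1.32 CPM in the CM/miR-126Δ/Δ mice. CM mouse 3 and CM/miR-126Δ/Δ mice 3 and 5 were low, and the other 7 mice lay between 2.82 and 5.89 CPM. These 3 libraries also had the fewest genes with a count, 16191, 15983 and 16058, against 16364 to 16698 in the other 7. RNA concentration was lowest in CM/miR-126Δ/Δ mice 3 and 5 (16.1 and 18.2 ng/µl), but it was 26.5 ng/µl in CM mouse 3. The part of library quality in these values was not tested. The log2 fold change of Pf4 was 0.17 with a standard error of 0.39 (adjusted p = 0.933, edgeR's quasi-likelihood test), and its sign turned to −0.18 without CM/miR-126Δ/Δ mouse 2, the highest.

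Vwf (chr6:125552948-125686679, plus strand) encodes von Willebrand factor, which tethers platelets to the vessel wall and is also made by endothelium. The CM mice had 8.63, 19.6, 7.45, 11.7 and 13.8 CPM, and the CM/miR-126Δ/Δ mice had 18.3, 23.4, 5.62, 14.7 and 13.0 CPM. Mouse 2 was the highest and mouse 3 the lowest in both genotypes. The log2 fold change was 0.30 with a standard error of 0.31 (adjusted p = 0.818, edgeR's quasi-likelihood test). With single mice left out it lay between 0.08 without CM/miR-126Δ/Δ mouse 2 and 0.53 without CM mouse 2.

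Selp (chr1:164115264-164150026, plus strand) encodes P-selectin, the adhesion molecule of activated platelets and endothelium. Its levels were 140.4, 237, 162, 132 and 182 CPM in CM mice and 206, 165, 139, 123 and 130.0 CPM in CM/miR-126Δ/Δ mice. The CM/miR-126Δ/Δ mouse was lower in 4 of 5 pairs and higher in pair 1. For Selp the log2 fold change was −0.16 with a standard error of 0.16 (adjusted p = 0.796, edgeR's quasi-likelihood test). It lay between −0.28 without CM/miR-126Δ/Δ mouse 1 and −0.02 without CM mouse 2. The antisense gene Gm16548 shares 1451 bases with Selp but had only 1 to 9 counts per mouse.

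Gp1bb (chr16:18620319-18622403, minus strand) encodes the beta chain of glycoprotein Ib, part of the platelet receptor for von Willebrand factor. It was the lowest member, with 0.727, 2.48, 0.614, 1.04 and 0.991 CPM in CM mice and 1.34, 1.49, 0.435, 1.39 and 0.0823 CPM in CM/miR-126Δ/Δ mice. The last value rests on 2 reads and is under the detection limit, whereas CM mouse 2 had 75 reads, the most of any mouse. The log2 fold change was −0.30 with a standard error of 0.54 (adjusted p = 0.912, edgeR's quasi-likelihood test), and it was 0.17 without CM mouse 2. Gp1bb overlaps Sept5 on the same strand by 593 bases, and Sept5 had 12 to 37 counts per mouse, so reads in the shared bases cannot be assigned with certainty.

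The endothelial markers Cdh5 and Kdr, which bear on Vwf and Selp, had mean levels of 0.189 and 0.219 RPKM, and the 4 endothelial markers examined summed to 40.1 to 46.7 CPM in the CM mice. In the CM/miR-126Δ/Δ mice the sum was 30.6 to 52.9 CPM. Most of this sum came from Tek and Emcn, which stem cells also express. Of the 5 mature platelet markers Gp6 was listed at 0, and their sum was 9.17 to 13.8 CPM in the CM mice and 7.49 to 14.8 CPM in the other genotype. It was lowest in CM mouse 3 within its genotype and in CM/miR-126Δ/Δ mice 3 and 5, the mice that were low for Pf4. The part of mature platelets or of library quality in the platelet-lineage values was not tested.

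Nfe2 and Gfi1b act in both lineages, and neither passed the test between the genotypes. Nfe2 (chr15:103248212-103258403, minus strand) encodes the p45 subunit of NF-E2, which platelet release depends on. Its levels were 226, 173, 195, 241 and 242 CPM in CM mice and 217, 201, 222, 228 and 247 CPM in CM/miR-126Δ/Δ mice. It was the steadiest member, with a range of 1.43-fold over the 10 mice and a log2 fold change of 0.05 with a 95% interval of −0.16 to 0.26 (adjusted p = 0.914, edgeR's quasi-likelihood test).

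Gfi1b (chr2:28609450-28621982, minus strand) encodes a zinc finger repressor needed for both megakaryocytes and red cells. It had 44.6, 26.0, 56.3, 31.1 and 40.1 CPM in CM mice and 42.8, 48.9, 46.9, 39.9 and 40.1 CPM in CM/miR-126Δ/Δ mice. The CM mice spanned 39.6 ± 11.9 CPM and the CM/miR-126Δ/Δ mice 43.7 ± 4.08 CPM (SD, n = 5 each), the latter lying within the range of the former. For Gfi1b the log2 fold change was 0.14 with a 95% interval of −0.23 to 0.51 (adjusted p = 0.840, edgeR's quasi-likelihood test). Single mice moved it, to 0.32 without CM mouse 3 (unadjusted p = 0.0323, adjusted p = 0.583, edgeR) and to 0.02 without CM mouse 2.

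Among the erythroid members, Klf1 and Car1 varied widely between mice of the same genotype. Klf1 (chr8:84901982-84905289, plus strand), the erythroid factor, had 11.8, 4.23, 22.6, 7.33 and 6.54 CPM in CM mice and 6.23, 7.99, 11.9, 13.9 and 15.4 CPM in CM/miR-126Δ/Δ mice. CM mouse 3 was the highest of all and CM mouse 2 the lowest, so that the CM range contained every CM/miR-126Δ/Δ value. The means were 10.5 ± 7.30 and 11.1 ± 3.88 CPM (SD, n = 5 each), and the log2 fold change was 0.08 with a standard error of 0.37 (adjusted p = 0.977, edgeR's quasi-likelihood test).

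Epor (chr9:21958899-21963576, minus strand), the receptor for erythropoietin, had 4.30, 2.84, 6.55, 3.50 and 2.84 CPM in CM mice and 3.04, 4.28, 3.88, 4.16 and 4.90 CPM in CM/miR-126Δ/Δ mice. Again CM mouse 3 was the highest. Its log2 fold change was 0.02 with a standard error of 0.23 (adjusted p = 0.983, edgeR's quasi-likelihood test). Leaving out single mice moved the log2 fold change of Klf1 between −0.12 and 0.58 and that of Epor between −0.08 and 0.28, both highest without CM mouse 3.

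Car1 (chr3:14766214-14808365, minus strand) encodes carbonic anhydrase 1, an early mark of erythroid commitment. Its levels were 29.7, 3.97, 71.6, 18.8 and 13.8 CPM in CM mice and 17.7, 27.3, 59.5, 52.7 and 64.7 CPM in CM/miR-126Δ/Δ mice. CM mice thus spanned 18.1-fold and CM/miR-126Δ/Δ mice 3.67-fold, and CM mouse 3 exceeded every other mouse. The means were 27.6 ± 26.3 and 44.4 ± 20.7 CPM (SD, n = 5 each; exact permutation test, two-sided, p = 0.310). The log2 fold change was 0.69 with a standard error of 0.54 (adjusted p = 0.766, edgeR's quasi-likelihood test), and with the replicate block 1.03 with a standard error of 0.42 (unadjusted p = 0.0310, adjusted p = 0.485, edgeR). In 3 of the 5 pairs Car1 was higher in the mouse without miR-126, with ratios of 0.594 to 6.89 over all pairs.

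A single mouse decided whether Car1 passed the cutoffs. Without CM mouse 3 its log2 fold change was 1.43 (unadjusted p = 0.00749, adjusted p = 0.409, edgeR's quasi-likelihood test), and it was then the 1 member called, among 128 of 18669 genes (0.686%) called in the libraries that remained. Without any other mouse it was between 0.41 and 0.91 and was not called. CM mouse 3 also had the lowest read depth, 23649233 counts, and a granulocyte marker sum of 3314 CPM, against 1729 to 2679 CPM in the other CM mice. All 8 granulocyte markers had counts in at least 1 mouse. Their sum was 1438 to 4049 CPM in CM/miR-126Δ/Δ mice, highest in mouse 3. Most of the sum was Mpo, with a mean of 2160 CPM over CM mice and 2184 CPM over CM/miR-126Δ/Δ mice. Ly6g, S100a8, S100a9, Ltf and Ngp averaged 0.1025 to 13.0 CPM over CM mice and 0.1824 to 24.75 CPM over CM/miR-126Δ/Δ mice. The part of depth or of other cells in the Car1 values was not tested.

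The order of levels per length put the shared factor Nfe2 first, with a mean of 78.4 RPKM over the 10 mice. Selp followed with 47.0, Itga2b with 46.1, Car1 with 28.8, Gfi1b with 22.9, Klf1 with 7.32, Pf4 with 5.06, Epor with 2.20, Vwf with 1.54 and Gp1bb with 0.508 RPKM. Neighbours in this order were compared within mice (exact sign-change test of the log2 ratio, two-sided, adjusted over 9 neighbour pairs). Nfe2 exceeded Selp in 9 of 10 mice (p = 0.0117, exact), Gfi1b exceeded Klf1 in 10 of 10 (p = 0.00879, exact), Pf4 exceeded Epor in 8 of 10 (p = 0.0308, exact) and Vwf exceeded Gp1bb in 10 of 10 (p = 0.00879, exact). The other 5 neighbour pairs did not differ beyond their spread: Selp and Itga2b, Itga2b and Car1, Car1 and Gfi1b, Klf1 and Pf4, and Epor and Vwf. Nfe2 stood at percentile 97.2 of all genes fitted, and Gp1bb at percentile 33.8.

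Spread between mice was above average for every member. The coefficient of variation within genotypes ranged from 11.2% for Nfe2 to 66.1% for Gp1bb and 65.8% for Car1, against a median of 9.60% for genes that averaged 1 RPKM or more. Pf4, Vwf, Klf1 and Car1 lay at percentiles 96.2 to 98.7 of those genes. Those genes were not matched to the members for level, and Gp1bb itself averaged less than 1 RPKM. Low counts add to the spread of Gp1bb, and also to that of Pf4 (30 to 146 counts per mouse) and Epor (82 to 160). Car1 had 120 to 1749 counts per mouse.

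Members of the same lineage mostly correlated positively from mouse to mouse and members of opposite lineages negatively, but few single pairs passed the test. Over the 10 mice, correlations of log2 CPM were positive for 3 of 3 pairs of erythroid members (r of 0.813 to 0.931) and for 10 of 10 pairs of platelet-lineage members (0.242 to 0.793, median 0.543). All 15 pairs of an erythroid with a platelet-lineage member were negative (−0.771 to −0.455, median −0.574). Of the 45 pairs, 14 had an unadjusted permutation p of r under 0.05, 2 an adjusted one under 0.05 and 6 an adjusted one of rho under 0.05. The 6 were the 3 erythroid pairs and the pairs among Pf4, Gp1bb and Vwf. None of the 15 pairs across the lineages passed, with the lowest adjusted permutation p at 0.0628 for r and 0.151 for rho, and no platelet-lineage pair passed for r. Itga2b correlated with Pf4, Vwf, Gp1bb and Selp at 0.698, 0.538, 0.5485 and 0.242. Without CM/miR-126Δ/Δ mice 3 and 5, the 2 farthest in Itga2b, these values were 0.386, 0.137, 0.0757 and −0.0986. Each of them was thus lower without those mice. CPM share 1 total per library and several members share a mouse's extreme values, so the 45 pairs are not independent.

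Klf1 and Car1 had r = 0.931 and rho = 0.976 (permutation p = 7e-05, adjusted 0.00315 for r and p = 2e-05, adjusted 0.0009 for rho), and r = 0.933 without CM mice 2 and 3, the 2 farthest from the median of Klf1. Klf1 and Epor had r = 0.920 and rho = 0.867 (permutation p = 0.00014, adjusted 0.00315 for r and p = 0.00195, adjusted 0.0176 for rho), and r = 0.841 without the same 2 mice. Epor and Car1 had r = 0.813 and rho = 0.879 (permutation p = 0.00467, adjusted 0.0525 for r and p = 0.00143, adjusted 0.0176 for rho), and r = 0.834 without CM mice 3 and 5, the 2 farthest in Epor. With the means of genotype and replicate number subtracted these 3 values were 0.944 to 0.968. That subtraction makes the 2 mice of a pair mirror images, so those values rest on 5 pairs rather than on separate mice.

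**Figure D3:**
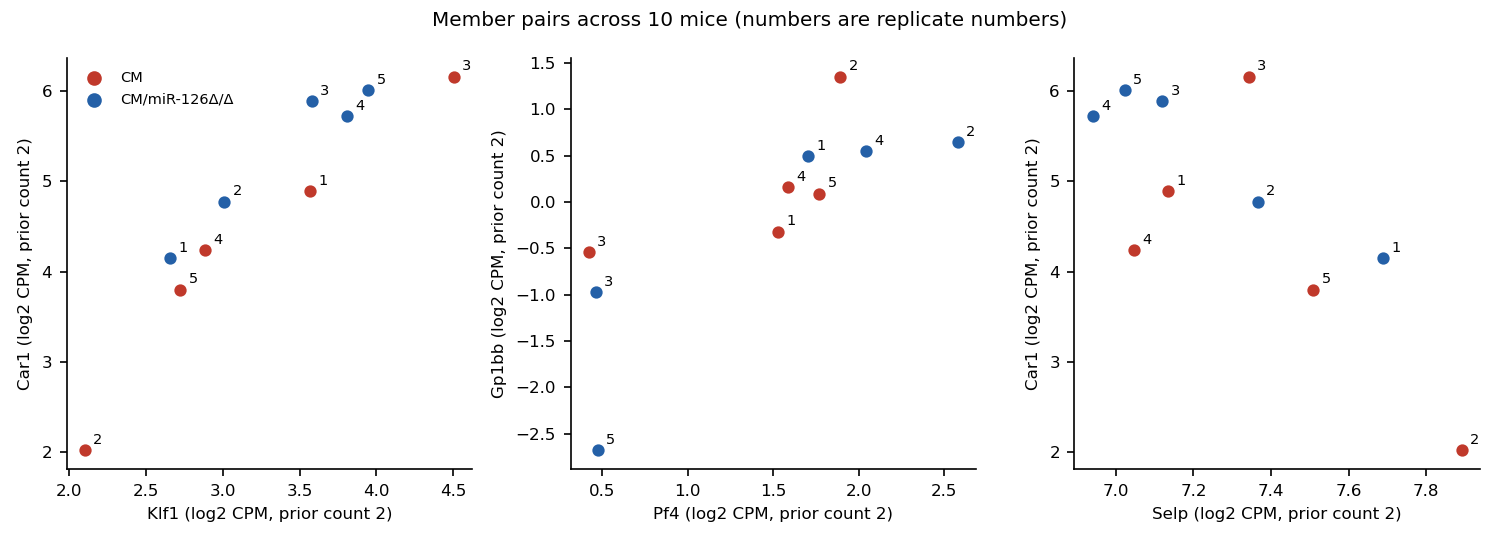
Levels of Klf1 and Car1, Pf4 and Gp1bb, and Selp and Car1 across the 10 mice in log2 CPM (prior count 2), with red points for CM, blue points for CM/miR-126Δ/Δ and replicate numbers beside the points. Klf1 and Car1 vary together (r = 0.931), Pf4 and Gp1bb vary together with 3 mice at the low end (r = 0.793), and Selp and Car1 run in opposite directions (r = −0.771).

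Among the platelet-lineage members, Pf4, Gp1bb and Vwf were the closest by rank. Pf4 and Gp1bb had r = 0.793 and rho = 0.879 (permutation p = 0.0034, adjusted 0.0510 for r and p = 0.00172, adjusted 0.0176 for rho), and r = 0.869 without CM and CM/miR-126Δ/Δ mice 3, the 2 farthest in Pf4. Pf4 and Vwf had r = 0.788 and rho = 0.891 (permutation p = 0.0071, adjusted 0.0628 for r and p = 0.00119, adjusted 0.0176 for rho), and r = 0.556 without the same mice. Vwf and Gp1bb had r = 0.524 and rho = 0.830 (permutation p = 0.118, adjusted 0.197 for r and p = 0.00443, adjusted 0.0332 for rho). Because 3 mice, those with the fewest genes with a count, lay apart at 1.27 to 1.32 CPM of Pf4, the values were repeated in the other 7. There Pf4 and Vwf had r = 0.764 (exact permutation p = 0.0210), Pf4 and Gp1bb r = 0.487 (exact permutation p = 0.289) and Pf4 and Itga2b r = −0.628 (exact permutation p = 0.0611). Adjusted over the 4 pairs with Pf4, the lowest of these exact p-values was 0.0841. Over all 10 mice Pf4 and Itga2b had r = 0.698 and rho = 0.382 (permutation p = 0.0212, adjusted 0.117 for r and p = 0.279, adjusted 0.417 for rho), so that this relation rested on the 3 low mice.

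Selp and Car1 were the most opposed pair, with r = −0.771 and rho = −0.673 (permutation p = 0.00837, adjusted 0.0628 for r and p = 0.0398, adjusted 0.195 for rho). Without CM mouse 2 and CM/miR-126Δ/Δ mouse 1, the 2 farthest in Selp, r was −0.436. All 15 erythroid and platelet-lineage pairs stayed negative with genotype means subtracted (median −0.638) and without CM mice 2 and 3 (median −0.546). They were negative also with the replicate block, but many were weaker there (median −0.286). With the block, pairs with Itga2b, Pf4 or Vwf lay between −0.297 and −0.102. Those with Selp or Gp1bb lay between −0.818 and −0.566. The opposition was thus weak with the block for Itga2b, Pf4 and Vwf. Gfi1b followed the erythroid members (r of 0.672 to 0.757), but without CM mice 2 and 3 these values were 0.164 to 0.282 and no longer held. Nfe2 and Gfi1b had r = 0.120 (permutation p = 0.743, adjusted 0.760) and rho = −0.321 (permutation p = 0.367, adjusted 0.472) over all mice. Without CM mice 2 and 3, the 2 farthest in Nfe2, their r was −0.7195.

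**Figure D4:**
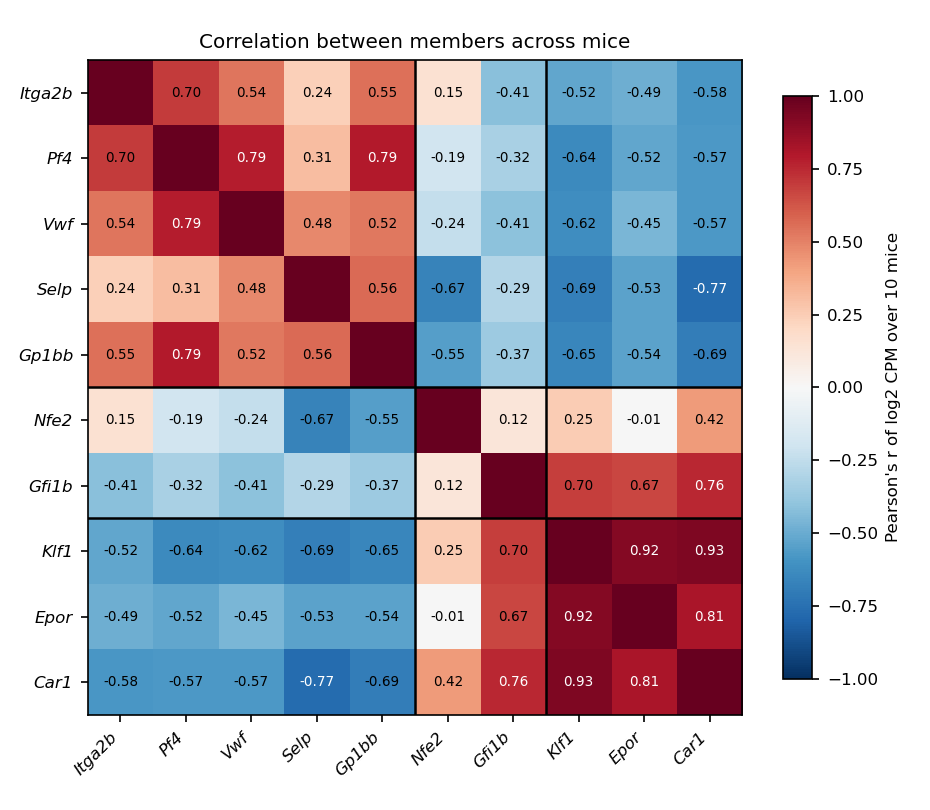
Pearson's r of log2 CPM over 10 mice for each pair of members, red for positive and blue for negative values, with black lines between the platelet-lineage members, the 2 factors of both lineages and the erythroid members. The platelet-lineage block and the erythroid block hold positive values only (0.242 to 0.793 and 0.813 to 0.931), and the blocks between these lineages negative values only.

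Mature erythroid markers did not track the erythroid members throughout. Alas2 and Slc4a1 were detected, Hbb-bs had at most 1 count in a mouse, and Hba-a1, Hba-a2 and Hbb-bt were listed at 0, which for near-identical globin copies can reflect how reads were assigned. The sum of these 6 markers was 43.7, 6.21, 60.5, 43.3 and 34.0 CPM in CM mice and 23.7, 44.1, 10.5, 67.2 and 19.4 CPM in CM/miR-126Δ/Δ mice. Within the CM genotype mouse 2 was the lowest and mouse 3 the highest for both this sum and Car1, whereas CM/miR-126Δ/Δ mice 3 and 5 had the lowest sums of their genotype and the highest Car1 levels. The part of mature red cells in the erythroid values was not tested.

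The 2 genes whose pattern over the 10 mice was most like each member were found among 11523 other genes by Pearson's r of log2 CPM. These were Ntn4 (0.982) and Slc38a5 (0.976) for Klf1, C730029A08Rik (0.978) and Sptb (0.971) for Epor, and Ermap (0.969) and Aqp1 (0.959) for Car1. For the platelet-lineage members they were Tmem40 (0.954) and Sgce (0.939) for Itga2b, Fbxl22 (0.951) and Arl4a (0.943) for Pf4, and Shroom4 (0.935) and B9d1 (0.932) for Vwf. Selp was most like Tax1bp1 (0.913) and Tnfrsf26 (0.899), and Gp1bb most like Eif5 (0.970) and Btg1 (0.964). Nfe2 was most like Capn1 (0.941) and Ly6a (0.930), and Gfi1b most like Arhgap6 (0.955) and Myb (0.954). The highest of so many values over 10 mice is large for any gene, and these are descriptions.

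Among other genes of both lineages, 0 passed the cutoffs between the genotypes in each of the 4 lists examined. Since 0.288% of all genes fitted passed them, 0 in lists this short says little about the lists. List medians are to be read against the median log2 fold change of −0.01 over all genes fitted. Counts of list genes at an unadjusted p under 0.05 are to be read against the 6.61% of all genes at that level, or 8.89% with the replicate block. Of 22 other megakaryocyte and platelet genes, 21 had counts, 4 of these had a log2 fold change above 0 and the median was −0.11. The highest were Fermt3 (113 RPKM), an integrin activator, Plek (86.5 RPKM), a substrate of protein kinase C in platelets, and Selplg (43.8 RPKM), the ligand of P-selectin, with log2 fold changes of −0.04, −0.02 and −0.15. At an unadjusted p under 0.05 only Itgb3, which encodes the integrin beta chain that pairs with the Itga2b product, was found. It is named after its values were seen. It averaged 38.9 CPM over the CM mice and 30.3 CPM over the CM/miR-126Δ/Δ mice, and its log2 fold change was −0.36 with a standard error of 0.11 (adjusted p = 0.661, edgeR's quasi-likelihood test), short of 1.5-fold. With the replicate block, 2 genes of this list had an unadjusted p under 0.05, Itgb3 and Mmrn1, the latter chosen after its values were seen, and both were lower in CM/miR-126Δ/Δ mice.

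Of 27 other erythroid genes, 22 had counts, 10 of these had a log2 fold change above 0 and the median was −0.02. Car2, carbonic anhydrase 2, was the highest with 214 RPKM, followed by Urod (30.8 RPKM), a heme synthesis enzyme, and Slc25a37 (20.3 RPKM), a mitochondrial iron importer. Their log2 fold changes were 0.19, −0.02 and −0.18. Aqp1, a water channel of red cells, and Add2, a protein of the red cell membrane skeleton, had an unadjusted p under 0.05 with log2 fold changes of 0.54 and 1.48, and both are named after their values were seen (adjusted p = 0.746 for each, edgeR's quasi-likelihood test). Add2 was low, at 0.163 RPKM. With the replicate block, Aqp1, Add2 and Car2 had an unadjusted p under 0.05, all 3 higher in CM/miR-126Δ/Δ mice, against 2 without it.

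All 19 factors and cofactors of both lineages had counts, with 9 log2 fold changes above 0 and a median of −0.01. The highest were Lmo2 (280.3 RPKM) and Lyl1 (97.2 RPKM), partners in the complex around TAL1, and Myb (207 RPKM), a progenitor factor, with log2 fold changes of 0.07, −0.12 and 0.02. Gata1, the main erythroid and megakaryocyte GATA factor, averaged 22.9 CPM over the CM mice and 21.9 CPM over the CM/miR-126Δ/Δ mice. It was chosen after its values were seen, as were Ldb1 and Mafk, the 2 factors with an unadjusted p under 0.05. These had log2 fold changes of −0.13 and −0.25 (adjusted p = 0.748 and 0.746, edgeR's quasi-likelihood test). With the replicate block, 4 factors had an unadjusted p under 0.05, Lyl1, Ldb1 and Mafk lower and Bcl11a, also chosen after its values were seen, higher in CM/miR-126Δ/Δ mice.

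Below the receptors for erythropoietin and thrombopoietin, JAK2 and STAT5 switch on feedback genes such as Cish and the Socs genes. Of 11 genes of this pathway, the cytokine genes Epo and Thpo were listed at 0, and 1 of the other 9 had a log2 fold change above 0, with a median of −0.13. The highest were the kinase gene Pim1 (169 RPKM), Stat5a (44.2 RPKM) and Stat5b (32.4 RPKM), with log2 fold changes of −0.13, −0.03 and −0.05. Cish and Socs2, named after their values were seen, had an unadjusted p under 0.05 with log2 fold changes of −0.46 and −0.54 (adjusted p = 0.746 and 0.754, edgeR's quasi-likelihood test). With the replicate block, Socs3 and Bcl2l1 also had an unadjusted p under 0.05, so that 4 genes were lower against 2 without it.

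**Figure D5:**
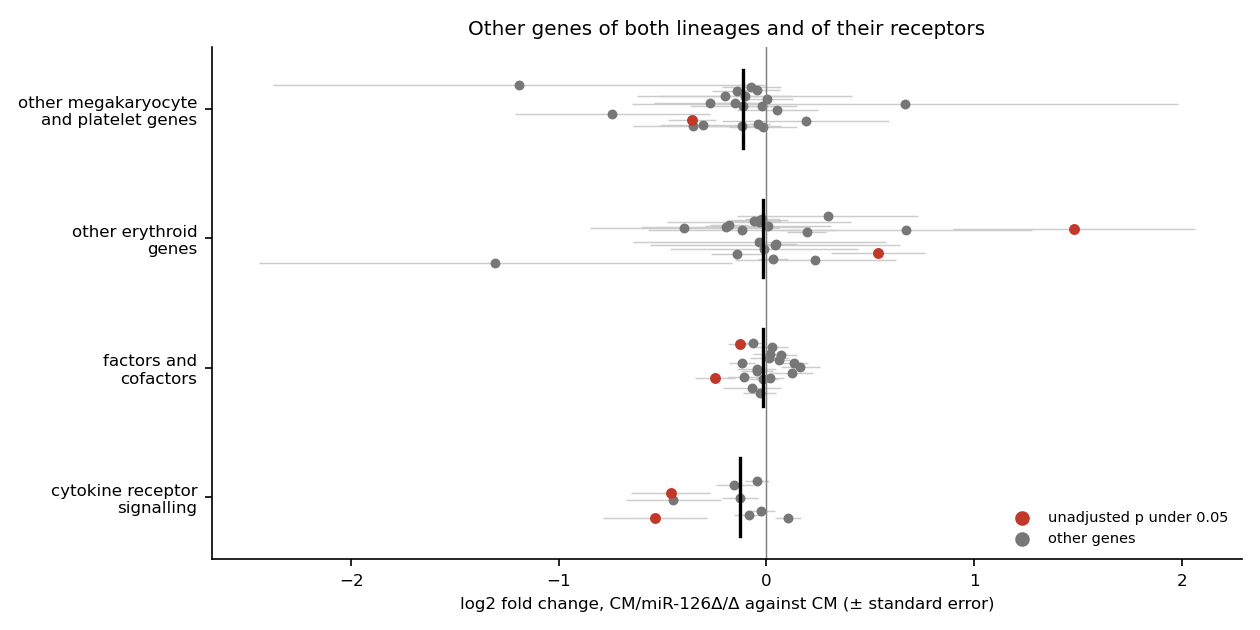
Log2 fold change with its standard error for each gene of the 4 lists, in red where the unadjusted p of edgeR was under 0.05 and in gray otherwise, with black bars at the list medians. The medians are −0.11, −0.02, −0.01 and −0.13 from top to bottom, and no gene passed the cutoffs.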

How the data were processed

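RNA-seq of LSK cells from 5 CM and 5 CM/miR-126Δ/Δ mice, 1 library per mouse, was analysed, with genotype and replicate number taken from the sample labels. Per the labels and the study's methods, ribosomal RNA was depleted with a stranded kit, reads were processed with bcl2fastq 2.18.0.12, aligned to mm10 with TopHat2 and counted on RefSeq genes with HTSeq 0.6.1p1. The deposited counts are whole reads per gene, made by the authors without normalization. The strand setting of the counting is not given in the sources used here. A second deposited table, each count divided by 1 constant per library, was not used.

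RPKM was calculated here as TMM-scaled CPM per kilobase of exon. All 18747 genes with a count of at least 1 somewhere were tested with edgeR 4.0.16 under R 4.3.3 (TMM, quasi-likelihood F-test in its earlier form, genotype as the only term, two-sided, Benjamini-Hochberg adjustment over all genes fitted). Fold changes used a prior count of 0.125 and log2 CPM a prior count of 2. DESeq2 1.42.0, other factors and filters, robust dispersions, Rn45s left out, each mouse left out and the replicate block were alternatives. The count test was also run on simulated data in which mice were drawn independently, without any pairing by replicate number. No result given here rests on that run. Permutation tests used Python 3.11.15, numpy 2.4.6, pandas 2.3.3 and scipy 1.17.1, with 100000 resamples for correlations.

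Total counts were 23649233 to 33202086 per library, and Rn45s, ribosomal RNA, took 14.8% to 22.6% of them. No 2 libraries of the same genotype agreed within sampling noise. The labels do not say what equal replicate numbers share. Deviations from the genotype means correlated within all 5 same-numbered pairs (r of 0.323, 0.266, 0.447, 0.484 and 0.202 over 11532 genes), so the numbers were taken to pair the mice. Without genes on X and Y, pair 5 had r = −0.0752. CM mice 2 and 5 correlated most with CM/miR-126Δ/Δ mice 1 and 4. Of the same-numbered mice only those numbered 3 were each other's closest, so the pairing is uncertain.

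The members and gene lists were chosen with earlier results of these data known, and some list genes are not reported here and were left out of their lists. Named are all members, list genes past the cutoffs, the 3 with the highest RPKM in each list, the 2 genes most like each member and genes overlapping a member. Further list genes with an unadjusted p under 0.05, and Gata1, were chosen after their values were seen. Seed matches were sought in GENCODE M1 transcripts, which follow an older build, so only their sequences were used.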

Additional observations from a re-analysis of the deposited data

Results flagged for a closer look

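In the CM genotype, Gp1bb stood out in mouse 2, which had 2.48 CPM from 75 reads while the next highest mouse had 1.04 CPM. This mouse lay far from the other 4 of its genotype by Dixon's ratio, 0.771 against a critical value of 0.71 for 5 samples. It was 1 of the 20 groups of 5 mice compared, and 1 such group in 20 is what chance gives.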

How the results depend on the processing

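Over all genes, 54 were called. The replicate block gave 115, no requirement on RPKM gave 111 and an adjusted p under 0.05 gave 2. Leaving out single mice gave 33 to 128, with 128 without CM 3, 94 without CM/miR-126Δ/Δ 4, 85 without CM/miR-126Δ/Δ 1 and 33 without CM/miR-126Δ/Δ 5. Members called stayed at 0 under every alternative of factors, filter, tool and cutoff and under the block, and were 0 to 1 with single mice left out. The block also moved the correlation of Pf4 and Vwf from 0.788 to 0.351 and turned that of Itga2b and Gfi1b from −0.41 to 0.55. The block changed no call of a member, and correlations with it rest on 5 pairs of mice.

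No member's log2 fold change turned its sign under another factor, filter or tool. With single mice left out, the log2 fold change of Gp1bb ranged from −0.52 to 0.17 and that of Nfe2 from −0.0196 to 0.11, both turning without CM 2. The range was −0.18 to 0.36 for Pf4, which turned without CM/miR-126Δ/Δ 2. It was −0.12 to 0.58 for Klf1 and −0.0806 to 0.28 for Epor, which both turned without CM 2, CM 4, CM 5 or CM/miR-126Δ/Δ 5, and Epor also without CM/miR-126Δ/Δ 2. The cause was not tested. Values without 2 mice (CM 2 and CM 3) and in the 7 mice with more Pf4 were chosen after seeing the data. Gp1bb averaged under 1 RPKM in both genotypes and has no value where only genes above that level were fitted, and its levels are limited by depth, with 2 reads in 1 mouse.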
